A study of Mus musculus with 24 samples.

Results

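The data describe 9 genes of the interferon response and of MHC class I antigen presentation in PRDM13-OE and wildtype mice, out of 56748 genes in the deposited table. The 9 were the rows whose gene symbol was Isg15, Ifit1, Ifit3, Irf7, B2m, H2-K1, H2-D1, Psmb8 or Psmb9, and each symbol matched 1 row. RNA sequencing was performed on the neural retina and on the eye cup (retinal pigment epithelium (RPE), choroid and sclera) of 12 mice, which gave 24 libraries in 8 groups of 3. The study asked how elevated human PRDM13, a transcriptional regulator of retinal neuron fate, alters the adult retina, and the untreated and wildtype groups separate the effects of the knock-in and of doxycycline (dox).

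PRDM13-OE mice were heterozygous for a knock-in at the Rosa26 locus, in which the ubiquitous EF-1α promoter drives rtTA and the TRE3G promoter drives human PRDM13 when dox is present. Because the promoter of rtTA is not restricted to a cell type, PRDM13 can be induced in all cells of the eye, and some expression without dox was described for this system. Wildtype mice were littermates. In each genotype, 3 mice received dox (2 mg/mL with 10% sucrose) in their drinking water for 72 hours and 3 were untreated, without sucrose, so dox and sucrose cannot be told apart. Per the study, dox was started at P28.

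Before any comparison, 1 mouse went against its label. The deposited table counts mouse genes, so the human knock-in itself was not measured here. The processed pseudogene Gm13394, a row chosen after its values were seen, had between 3290 and 9733 counts in 10 of the 12 PRDM13-OE libraries and between 32 and 135 counts in the 12 wildtype libraries. Both libraries of the mouse labelled PRDM13-OE untreated 1 had only 62 and 79 counts. The number of the 9 genes called in each comparison with the PRDM13-OE untreated group, and the fits of Irf7, B2m and Ifit1, are therefore also given without this library, and the remaining values that use the group include it. Xist was above 10 CPM (library-scaled counts, TMM method) in all 3 PRDM13-OE mice with dox, in 2 of 3 wildtype mice with dox, in 2 of 3 mice labelled PRDM13-OE untreated and in 1 of 3 untreated wildtype mice. The mix of sexes therefore differed between the groups, and its part in the results was not tested. Library totals ran from 16034800 to 21513207 counts in the retina and from 15825059 to 24908314 counts in the eye cup.

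Interferons are secreted alarm signals that act on almost every cell through JAK-STAT signalling and switch on a broad set of interferon-stimulated genes. One arm of that response is antiviral, and another raises MHC class I, the surface complex that shows peptides from inside the cell to cytotoxic T cells. Neurons of the healthy retina keep this system low, which is part of the immune privilege of the eye, whereas microglia, the vasculature and the RPE take a larger part in it.

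In 4 of the 9 genes the promoter carried the core of the interferon-stimulated response element, the DNA element bound by interferon regulatory factors. All 9 genes had an entry in the RefSeq promoter table (GRCm38.p6, 250 bases before to 50 bases after the start), and each window was found exactly once in GRCm39, the build of the counts. The core was searched as GAAANNGAAA on either strand, which reads TTTCNNTTTC on the other strand. It was present in the windows of Isg15, Ifit1, Ifit3 and B2m and in 3.44% of all 32851 windows (1079 of 27025 genes). Other motifs that were searched are not reported here. The 4 stretches below show where it lies, 5′ to 3′ in the direction of transcription, with the matching bases in capitals.
Isg15: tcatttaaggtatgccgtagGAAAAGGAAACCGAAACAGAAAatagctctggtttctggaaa
Ifit1: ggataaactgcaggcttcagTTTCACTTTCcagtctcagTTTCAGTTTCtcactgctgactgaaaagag
Ifit3: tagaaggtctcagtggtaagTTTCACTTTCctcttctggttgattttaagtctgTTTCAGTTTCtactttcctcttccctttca
B2m: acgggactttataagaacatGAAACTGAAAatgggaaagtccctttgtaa

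In Isg15 (GRCm39 chr4:156285312-156285373, minus strand) 3 matches overlapped, beginning at −78, −72 and −66 relative to the start. Ifit1 (GRCm39 chr19:34618165-34618233, plus strand) held 2 separate matches beginning at −104 and −85, and Ifit3 (GRCm39 chr19:34560753-34560836, plus strand) held 2 beginning at −156 and −122. B2m (GRCm39 chr2:121978009-121978058, plus strand) held 1 match, at −139. A match is a description of the letters and not of binding.

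Levels between genes were compared as the deposited FPKM, which accounts for length. In the 12 retinas the invariant light chain B2m, which pairs with every class I heavy chain, was at 29.0 ± 5.49 FPKM (SD, n = 12). The heavy chain H2-D1 was at 25.1 ± 2.31 FPKM (SD, n = 12), and its range overlapped that of B2m. H2-K1, the other classical heavy chain, was at 10.8 ± 1.70 FPKM (SD, n = 12) and overlapped with neither H2-D1 above it nor Ifit3 below it.

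The interferon-stimulated genes came next. Ifit3, which belongs to a family that binds viral RNA, was at 6.75 ± 0.748 FPKM (SD, n = 12). Irf7, the transcription factor that amplifies type I interferon production, was at 3.07 ± 1.21 FPKM (SD, n = 12), and Isg15, a ubiquitin-like modifier, was at 2.52 ± 0.771 FPKM (SD, n = 12). The ranges of these 3 genes overlapped from one to the next. Ifit1, a sensor of viral RNA caps, was at 1.28 ± 0.412 FPKM (SD, n = 12).

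The immunoproteasome subunits, which replace the standard catalytic subunits of the proteasome and favour peptides that fit class I, were lowest as deposited FPKM. Psmb8 was at 0.709 ± 0.151 FPKM (SD, n = 12) and Psmb9 at 0.411 ± 0.0674 FPKM (SD, n = 12), with 32 to 61 and 21 to 39 counts per retina. Counting error is large at this depth, as it is for Isg15, with 21 to 53 counts. Against its standard counterpart in the same library, Psmb8 FPKM was a median of 0.815% of Psmb5 and Psmb9 FPKM a median of 0.871% of Psmb6. Psmb10, the remaining immunoproteasome subunit and not one of the 9, was at a median of 36.8% of Psmb7.

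Some rows share sequence with others. Of the windows of 75 bases in each transcript, 25.7% of those in Ifit3 also occur in Ifit3b, 6.83% of those in H2-D1 occur in other genes (mostly H2-Q1), and 1.51% of those in H2-K1 occur in H2-D1. The values of Ifit3 and H2-D1 are uncertain to that extent. The lengths behind the FPKM differ from those of the longest coding transcripts, with 860 against 2031 bases for B2m, 2938 against 1663 for H2-K1, 2579 against 2125 for H2-D1, 1745 against 2876 for Ifit3, 3776 against 2397 for Irf7, 2656 against 7421 for Ifit1, 3381 against 1702 for Psmb8 and 3660 against 1353 for Psmb9. The order of the genes, B2m against the heavy chains included, and the shares of Psmb8 and Psmb9 therefore depend on the lengths chosen. The length used for Irf7 (chromosome 7, 140842619 to 140846394, minus strand) covered 100% of its span, introns included, and the gene overlaps Phrf1 on the opposite strand by 45 bases. Psmb9 overlaps Tap1, at 49 to 1232 counts per library, on the opposite strand by 212 bases. Whether counting used strand is not given in the sources used here.

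In the neural retina, PRDM13-OE mice with dox were first compared with wildtype mice with dox. A gene was called when the edgeR quasi-likelihood adjusted p was under 0.05 and the log2-fold change was beyond 1 in either direction. None of the 9 genes was called, against 495 of 20560 genes (2.41%), and none was called by DESeq2. At an unadjusted p under 0.05 there were 2 of the 9, Irf7 and B2m, and 5479 of the 20560 genes, so the share of the 9 was no higher than that of all genes. Without the fold change cutoff 1 of the 9 passed, Irf7, which was higher, where 5.01% of all genes passed as higher and 7.51% as lower.

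Irf7 was at 23.7, 19.9 and 17.1 CPM in the PRDM13-OE retinas with dox and at 14.5, 10.8 and 7.20 CPM in the wildtype retinas with dox. It was at 10.6, 10.2 and 10.1 CPM in the retinas labelled PRDM13-OE untreated and at 8.32, 10.5 and 8.96 CPM in untreated wildtype retinas. Each of the 3 PRDM13-OE retinas with dox lay above all 9 others, which was also true of B2m and of 4.52% of all genes. The log2-fold change of Irf7 compared with wildtype with dox was 0.89 (SE 0.20, 95% confidence interval 0.46 to 1.33, edgeR adjusted p = 0.0122), a 1.86-fold higher level. That Irf7 passed the adjusted p depended on the fit. The edgeR adjusted p was 0.0654 without PRDM13-OE retina 1, 0.0552 without PRDM13-OE retina 2 and 0.123 with robust fitting, with log2-fold changes between 0.68 and 1.16 over the 6 fits that left out a library. The adjusted p was 0.0280 in DESeq2 and as low as 0.00209 in edgeR with a library left out.

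Against retinas labelled PRDM13-OE untreated, Irf7 was also higher, the log2-fold change being 0.97 (SE 0.13, 95% confidence interval 0.69 to 1.25, edgeR adjusted p = 0.000452). Without the untreated library that went against its label the adjusted p was 0.000983, and over the fits that left out any 1 library it ran from 0.000657 to 0.00434. The comparison shares its PRDM13-OE retinas with dox with the one above. None of the 9 was called here, with 214 of 20603 genes (1.04%) called in all and 3 of the 9 (Irf7, B2m and Ifit1) at an unadjusted p under 0.05, as were 3216 of all genes. Without the library that went against its label none of the 9 was called either, with 229 genes called in all. Irf7 was the 1 of 9 that passed as higher without the cutoff, as it was by DESeq2, where 2.04% of all genes passed as higher and 2.96% as lower.

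The interaction of genotype and dox asks whether dox changed a gene differently in the 2 genotypes. For Irf7 it was 0.74 on the log2 scale (95% confidence interval 0.19 to 1.30), with an unadjusted edgeR p of 0.0117 and an adjusted p of 0.175. No member passed in edgeR or DESeq2, Irf7 was the 1 of 9 at an unadjusted p under 0.05, as were 3247 of the 22538 genes tested, and 0.87% were called. Without wildtype dox retina 1 the interaction of Irf7 was 1.01 with an adjusted p of 0.0307, and without the filter on low counts its adjusted p was 0.00305. Without the untreated library that went against its label it was 0.76 with an adjusted p of 0.219, and none of the 9 was called. Phrf1, the gene on the opposite strand that overlaps Irf7, was at 87.7 to 98.1 CPM over the 12 retinas and its log2-fold change against wildtype under dox was −0.03, with an edgeR adjusted p of 0.765.

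**Figure D1:**
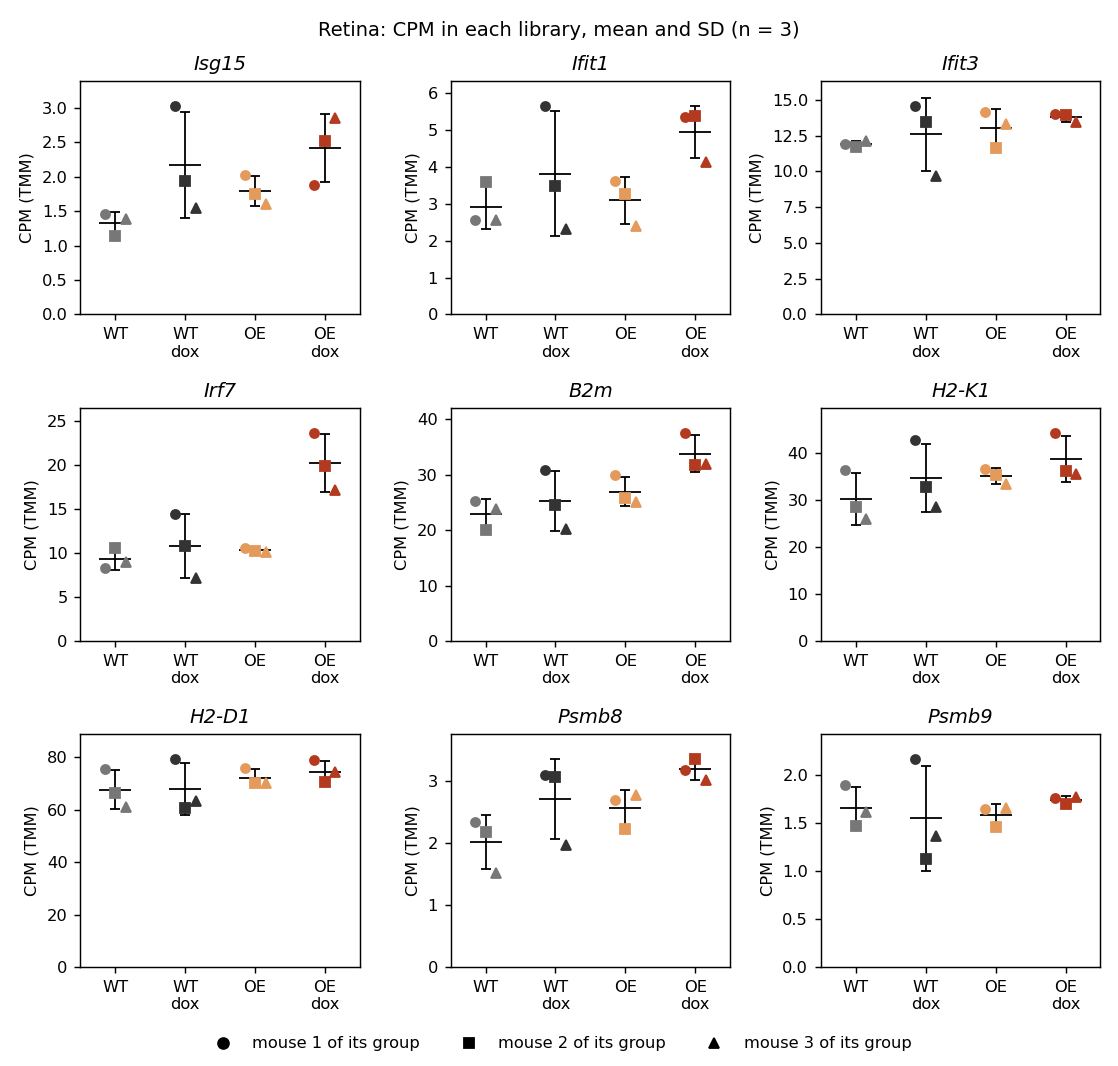
CPM of the 9 genes (vertical axes, from 0) in the 12 retinas, by group (WT, wildtype; OE, PRDM13-OE), with 1 point per mouse, horizontal bars for the mean and error bars for the SD (n = 3). The 3 PRDM13-OE retinas with dox lie above all other retinas for Irf7 (17.1 to 23.7 CPM) and B2m (31.8 to 37.6 CPM), while for the other 7 genes at least 1 other retina lies above the lowest of that group.

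B2m was at 37.6, 31.8 and 32.0 CPM in the PRDM13-OE retinas with dox and at 30.9, 24.6 and 20.2 CPM in the wildtype retinas with dox. It was at 29.9, 25.9 and 25.1 CPM in the retinas labelled PRDM13-OE untreated and at 25.2, 19.9 and 23.8 CPM in untreated wildtype retinas. The highest of these 9 control retinas, wildtype dox 1, fell just below the lowest PRDM13-OE retina with dox. The log2-fold change compared with wildtype with dox was 0.41 (SE 0.13, 95% confidence interval 0.13 to 0.70), which missed the threshold in edgeR (adjusted p = 0.0586) and passed it in DESeq2 (adjusted p = 0.0144). Without wildtype dox retina 1 it passed in edgeR as well (adjusted p = 0.00668). Leaving out another library gave an edgeR adjusted p of up to 0.204. Against retinas labelled PRDM13-OE untreated the log2-fold change was 0.32 (adjusted p = 0.0838), and without the library that went against its label it was 0.40 (edgeR adjusted p = 0.0344).

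The class I heavy chains differed little between the groups. H2-D1 had a log2-fold change of 0.13 in PRDM13-OE retinas compared with wildtype under dox (95% confidence interval −0.07 to 0.33, edgeR adjusted p = 0.420). H2-K1 had a log2-fold change of 0.15 (95% confidence interval −0.14 to 0.44, edgeR adjusted p = 0.518). H2-D1 was at 78.7, 70.3 and 74.1 CPM in PRDM13-OE and at 79.2, 60.7 and 63.4 CPM in wildtype retinas with dox, so the groups overlapped through wildtype dox 1. Without that library H2-D1 passed the threshold (log2-fold change 0.26, edgeR adjusted p = 0.0354). Leaving out another library gave H2-D1 an edgeR adjusted p of up to 0.782. With all libraries 2575 of the 20560 genes passed this threshold.

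Psmb8 and Psmb9 had log2-fold changes of 0.23 (95% confidence interval −0.25 to 0.70) and 0.16 (−0.47 to 0.80) in the same contrast. Psmb8 was at 3.18, 3.35 and 3.02 CPM in PRDM13-OE and at 3.09, 3.06 and 1.96 CPM in wildtype retinas with dox. The groups overlapped, and the intervals of both subunits included 0, so no difference was detectable at this depth.

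For Ifit1 the retinas held 5.35, 5.38 and 4.15 CPM in PRDM13-OE and 5.66, 3.49 and 2.32 CPM in wildtype with dox, a log2-fold change of 0.37 (95% confidence interval −0.23 to 0.96). Against the retinas labelled PRDM13-OE untreated, at 3.62, 3.27 and 2.40 CPM, the groups did not overlap and the log2-fold change of Ifit1 was 0.68 (95% confidence interval 0.21 to 1.15, edgeR adjusted p = 0.113), or 0.80 (adjusted p = 0.0780) without the library that went against its label. Isg15 (log2-fold change 0.16) and Ifit3 (0.13) were within the spread between retinas, and both were slightly negative without wildtype dox retina 3.

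All 9 log2-fold changes were positive in PRDM13-OE compared with wildtype retinas under dox, with a median of 0.16, where 50.8% of all genes were positive with a median of 0.01. In 2 of the 9 (Irf7 and B2m) the CPM of the 3 PRDM13-OE retinas lay above all 3 wildtype retinas, a share of all genes of 15.9%. Against the retinas labelled PRDM13-OE untreated, all 9 were again positive, with or without the library that went against its label, and with it 5 of the 9 (Ifit1, Irf7, B2m, Psmb8 and Psmb9) did not overlap, where 10.6% of all genes did so. The fits share the same 3 PRDM13-OE retinas with dox, and the 9 genes are related, so these counts are not separate observations.

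Dox alone left the 9 genes without a call. Between wildtype retinas with and without dox none passed either threshold, in edgeR or DESeq2, and 0.00485% of 20631 genes were called. The 1 member at an unadjusted p under 0.05, as were 1922 of all genes, was Isg15, at 3.03, 1.93 and 1.55 CPM with dox and 1.46, 1.15 and 1.38 CPM without. The log2-fold change of Isg15 was 0.70 (95% confidence interval 0.04 to 1.36, edgeR adjusted p = 0.506). In this comparison 8 of the 9 were positive, all but Psmb9, as were 9956 of 20631 genes. Between retinas labelled PRDM13-OE untreated and untreated wildtype retinas, 8 of the 9 and 10285 of all genes were positive, none was called (0% of 20668 genes), none was at an unadjusted p under 0.05, none passed in DESeq2, and the edgeR adjusted p was 0.995 for each. Without the library that went against its label none was called either, with 3 genes called in all.

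Markers of other cell types moved with these groups. Wildtype dox retina 1 had the highest level of its group in all 9 genes, and the summed CPM of 8 lens crystallins was 10656 in that library, 4448 in wildtype dox retina 2 and at most 771 in the other 10. The summed CPM of 12 microglial markers was 103 to 114 in PRDM13-OE retinas with dox, 91.7 to 102 in wildtype retinas with dox, 80.2 to 100.1 in the retinas labelled PRDM13-OE untreated and 75.5 to 85.5 in untreated wildtype retinas, with none of the 12 at 0. Of these 12, C1qc alone passed as higher than in wildtype with dox (log2-fold change 0.46, edgeR adjusted p = 0.0327). The sum of 10 endothelial markers was 237 to 266 CPM in PRDM13-OE retinas with dox and 367 to 465 CPM in all others, and 7 of the 10 passed as lower than in wildtype with dox. The 12 rod markers, of which 9 passed as lower, summed to 55985 to 62735 CPM in PRDM13-OE retinas with dox and to 74840 to 81306 CPM in the others. Of the 8 Muller glia markers 2 passed as higher and 4 as lower than in wildtype with dox, and all 8 lens crystallins were called as lower. The leukocyte list stayed between 2.40 and 6.44 CPM in all retinas, with the T cell marker Cd3e and the cytotoxic cell marker Nkg7 at 0, and the T cell marker Cd8a passed as lower than in wildtype with dox (log2-fold change −2.28, edgeR adjusted p = 0.0348). The 5 red blood cell markers, all called as lower than in wildtype with dox, summed to 0.706 to 1.19 CPM in PRDM13-OE retinas with dox and to 21.6 to 77.9 CPM in the others. The 10 RPE markers, of which 6 passed as lower, summed to 113 to 133 CPM in PRDM13-OE and to 195 to 212 CPM in wildtype retinas with dox. The part of these cell types in the levels of Irf7 and B2m was not tested, and in whole tissue fewer cells of a type and less RNA per cell cannot be told apart.

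**Figure D2:**
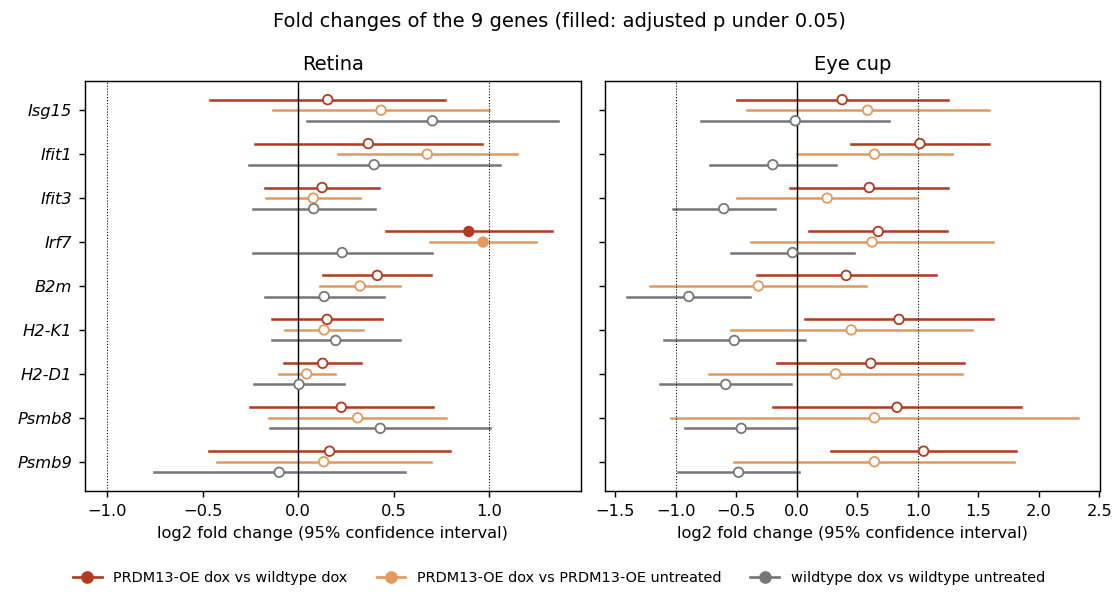
Log2-fold changes (horizontal axis) of the 9 genes in retinas and eye cups for 3 comparisons, with 95% confidence intervals as lines, dotted lines at −1 and 1, and filled points where the edgeR adjusted p was under 0.05. Irf7 in the retina is the only gene with filled points (0.89 and 0.97), and all 9 points of the genotype comparison under dox lie right of 0 in both tissues.

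In the eye cup, the same comparison of PRDM13-OE with wildtype mice with dox gave a larger log2-fold change than in the retina for 7 of the 9, all but Irf7 and B2m, and a wider interval for 8 of the 9, all but Ifit1. All 9 were positive, from 0.37 for Isg15 to 1.05 for Psmb9 with a median of 0.67, where the median of all genes was 0.05 and 54.2% were positive. None of the 9 was called by edgeR or by DESeq2, 4 of the 9 and 1792 of the 21758 genes tested were at an unadjusted p under 0.05, and 0.0184% were called. The edgeR adjusted p of the 9 ran from 0.597 to 0.732.

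Ifit1 was at 27.2, 32.4 and 35.3 CPM in PRDM13-OE eye cups with dox and at 14.9, 21.1 and 12.2 CPM in wildtype eye cups with dox. It was at 23.8, 14.2 and 22.04 CPM in eye cups labelled PRDM13-OE untreated and at 16.2, 18.9 and 19.4 CPM in untreated wildtype eye cups. No PRDM13-OE eye cup with dox overlapped with the wildtype eye cups with dox. The log2-fold change of Ifit1 compared with wildtype with dox was 1.02 (SE 0.24, 95% confidence interval 0.45 to 1.58), with an unadjusted edgeR p of 0.00363 and an adjusted p of 0.597. In DESeq2 the adjusted p of Ifit1 was 0.0634.

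Psmb9 was at 22.3, 21.1 and 10.3 CPM in PRDM13-OE and at 9.83, 7.45 and 9.397 CPM in wildtype eye cups with dox, a log2-fold change of 1.05 (95% confidence interval 0.28 to 1.81, edgeR adjusted p = 0.597). The groups did not overlap for Ifit1, Ifit3 and Psmb9, 3 of the 9, where 6.8% of all genes had all 3 PRDM13-OE eye cups above all 3 wildtype eye cups.

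Both class I heavy chains and Psmb8 split the PRDM13-OE group. H2-K1 was at 223, 243 and 98.6 CPM in PRDM13-OE and at 114, 104 and 105 CPM in wildtype eye cups with dox. H2-D1 was at 422, 457 and 199 CPM in PRDM13-OE and at 236, 217 and 269 CPM in wildtype eye cups with dox. Psmb8 was at 53.2, 42.4 and 14.5 CPM in PRDM13-OE and at 20.9, 19.0 and 23.97 CPM in wildtype eye cups with dox. In all 3 genes PRDM13-OE eye cups 1 and 2 were above every wildtype eye cup with dox, and PRDM13-OE eye cup 3 was below every one of them. B2m did not follow this split, at 248, 430.5 and 199 CPM in PRDM13-OE and 199, 202 and 272 CPM in wildtype eye cups with dox.

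That library decided the calls. Without PRDM13-OE eye cup 3, H2-K1 (log2-fold change 1.14, edgeR adjusted p = 0.0145), Psmb8 (1.20, 0.0180) and Psmb9 (1.32, 0.0174) were called. Irf7 (0.86, 0.0367) and H2-D1 (0.90, 0.0340) passed the adjusted p alone. In that fit 1767 of the 21237 genes tested were called and 2209 passed the adjusted p. With all libraries 4 of 21758 genes were called. The passes without this library were therefore not confined to the interferon and class I genes. The tissue in the 3 eye cups differed as well. The summed CPM of 12 rod markers was 13323 and 6011 in PRDM13-OE eye cups 1 and 2, 38520 in PRDM13-OE eye cup 3 and 26357 to 49821 in wildtype eye cups with dox. The sum of 5 markers of the surface epithelium was 22213, 11144 and 3883 CPM in PRDM13-OE eye cups 1, 2 and 3 and 4105 to 8656 CPM in wildtype eye cups with dox. Microglial markers were 214 CPM in PRDM13-OE eye cup 3, against 317 and 415 CPM in the other two, and the part of these tissues in the class I levels was not tested.

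**Figure D3:**
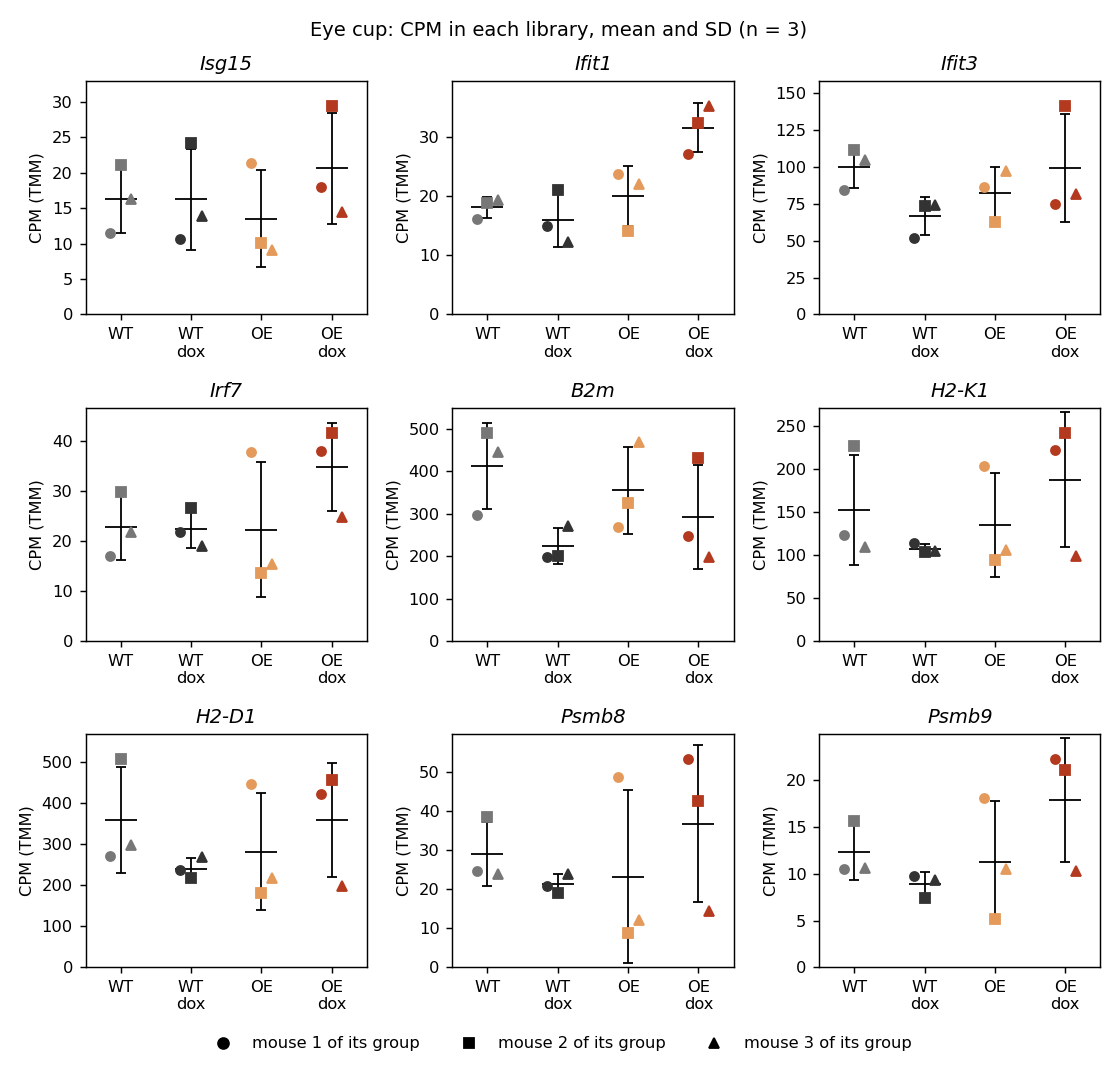
CPM of the 9 genes (vertical axes, from 0) in the 12 eye cups, by group (WT, wildtype; OE, PRDM13-OE), with 1 point per mouse, horizontal bars for the mean and error bars for the SD (n = 3). Mouse 3 of the PRDM13-OE group with dox lies far below mice 1 and 2 for H2-K1, H2-D1 and Psmb8 (14.5 against 42.4 and 53.2 CPM), and Ifit1 of all 3 mice of that group is at 27.2 CPM or more.

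In the eye cups labelled PRDM13-OE untreated, mouse 1 was the highest for 7 of the 9 genes, all but Ifit3 and B2m, and the lowest for B2m. Psmb8 was at 48.6, 8.74 and 12.1 CPM and H2-K1 at 204, 94.8 and 105 CPM in these 3 eye cups, B2m was at 269.96, 326 and 470.05 CPM, and mouse 1 is the one that went against its label. Surface epithelium markers summed to 15366 CPM in eye cup 1 of this group and to 708 and 663 CPM in eye cups 2 and 3. Between PRDM13-OE eye cups with dox and those labelled untreated, 8 of the 9 and 11797 of all genes were positive, none of the 9 was called (0.0139% of 21604 genes), 1 of the 9 (Ifit1) and 894 of all genes were at an unadjusted p under 0.05, and DESeq2 called none of the 9. The interaction of genotype and dox was positive for all 9 (median 0.86) and for 12215 of all genes, with none of the 9 called by edgeR or DESeq2 (0% of 23837 genes) and 2 of the 9 (Ifit1 and Ifit3) and 1526 of all genes at an unadjusted p under 0.05. For untreated mice, PRDM13-OE eye cups as labelled against wildtype eye cups gave 1 positive of the 9 (5 others turned positive in some fit that left out 1 library) and 10663 of all genes, none of the 9 called by either tool (0% of 21588 genes) and none at an unadjusted p under 0.05. Without eye cup 1 of the group labelled PRDM13-OE untreated, the number called among the 9 remained 0 in these 3 comparisons, with 4, 0 and 298 genes called in all.

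The estimates for dox in wildtype mice had the other sign in the eye cup. All 9 log2-fold changes between wildtype eye cups with and without dox were negative, with a median of −0.48, where 47.5% of all genes were positive. Isg15 (−0.01) and Irf7 (−0.04) were near 0 and turned positive under some other settings and with some libraries left out. B2m was at 199, 202 and 272 CPM with dox and at 298, 492 and 446 CPM without. Its log2-fold change was −0.89 (SE 0.22, 95% confidence interval −1.40 to −0.38), and Ifit3 had −0.60 (−1.03 to −0.18). Both missed the threshold in edgeR (adjusted p = 0.0711 and 0.0877) and passed it in DESeq2 (adjusted p = 0.00523 and 0.0368), which 4152 of the 21799 genes tested also did. No member was called by either tool, where edgeR called 0% of all genes and DESeq2 called 1968 genes. At an unadjusted p under 0.05 in edgeR were 3 of the 9 (B2m, Ifit3 and H2-D1) and 6517 of all genes, a share of the 9 close to that of all genes.

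B2m was called as lower in edgeR when wildtype dox eye cup 3 or untreated wildtype eye cup 1 was left out, with 930 and 1991 genes called in all. Rod markers moved with this comparison, with sums of 26357 to 49821 CPM in wildtype eye cups with dox and 3360 to 25058 CPM in those without. Microglial markers (249.7 to 300.3 CPM with dox and 362 to 540 CPM without), leukocyte markers (33.0 to 46.8 CPM and 62.7 to 102 CPM) and RPE markers (9513 to 20360 CPM and 27665 to 44651 CPM) also did not overlap, and their part was not tested. Because wildtype eye cups with dox are also the reference of the genotype comparison, the positive values there and the negative values here share these 3 libraries.

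Between the tissues the difference was far larger. All 9 genes were called as higher in the eye cup than in the retina, where 42.7% of 26034 genes were called and 24.2% were called as higher, and each was higher in the eye cup of 12 of 12 mice. B2m had the largest log2-fold change at 3.71 (95% confidence interval 3.43 to 3.99), followed by Psmb8 at 3.56 (3.01 to 4.11) and Isg15 at 3.30 (2.90 to 3.71). Irf7 had the smallest at 1.24 (0.91 to 1.57, edgeR adjusted p = 7.2e-07), and its interval did not overlap those of the other 8.

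Within a mouse, eye cup FPKM of B2m was a median of 14.7 times retina FPKM (range 6.97 to 28.5). The ratio was 13.3 for Psmb8, 10.8 for Isg15, 7.73 for Ifit3, 7.62 for Psmb9, 6.81 for Ifit1, 4.58 for H2-D1, 4.10 for H2-K1 and 2.45 for Irf7. The light chain therefore differed between the tissues by more than its heavy chains did, as levels in the same mice.

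In the eye cup B2m was at 398 ± 140 FPKM (SD, n = 12), above the range of the others with the deposited lengths. H2-D1 followed at 128 ± 47.1 FPKM, Ifit3 at 52.9 ± 14.4 FPKM, H2-K1 at 52.6 ± 21.1 FPKM and Isg15 at 25.1 ± 9.20 FPKM (SD, n = 12 each). The lower end held Psmb8 at 8.64 ± 4.63 FPKM, Ifit1 at 8.55 ± 2.76 FPKM, Irf7 at 7.18 ± 2.61 FPKM and Psmb9 at 3.65 ± 1.58 FPKM (SD, n = 12 each), and from H2-D1 down the range of each gene overlapped that of the next. The immunoproteasome made up more of the proteasome transcripts in the eye cup. Psmb8 FPKM was a median of 5.74% of Psmb5, Psmb9 FPKM 3.71% of Psmb6, and Psmb10 FPKM 119% of Psmb7. Retina and eye cup differ in their cells, so the levels per cell were not compared. Microglial markers summed to 214 to 598 CPM and leukocyte markers to 22.4 to 102 CPM in the eye cups. In the retinas these sums were 75.5 to 114 and 2.40 to 6.44 CPM. Surface epithelium markers summed to 663 to 22213 CPM in the eye cups and to at most 6.50 CPM in the retinas. Endothelial markers overlapped, at 196 to 725 CPM in the eye cups and 237 to 465 CPM in the retinas.

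**Figure D4:**
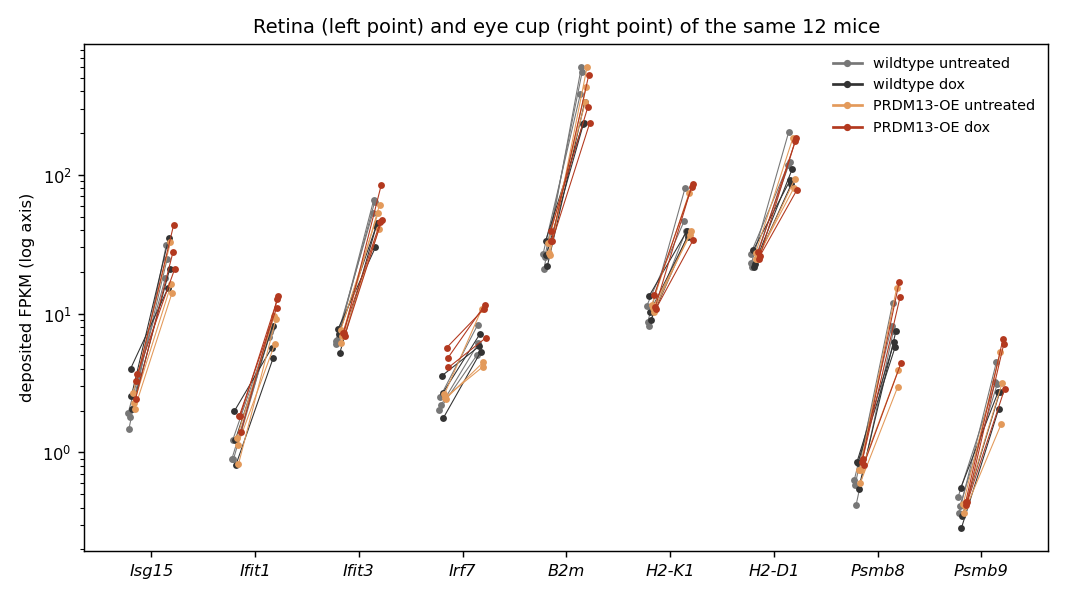
Deposited FPKM (vertical log axis) of the 9 genes in the retina (left point) and the eye cup (right point) of each of 12 mice, with a line for each mouse and the groups in color. Each line rises, most steeply for B2m (median ratio 14.7) and least for Irf7 (2.45).

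The interferons themselves were at or near 0. The 10 ligand genes had 12 counts in all over the 24 libraries, with 6 for Ifnk, 4 for Ifng, 1 for Ifnb1 and 1 for Ifnl2, and none of the 10 reached the 10 counts needed for a test. The ligands were therefore not detectable beyond these counts at this depth.

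Of receptors and JAK-STAT components, 17 genes were tested. In PRDM13-OE compared with wildtype retinas under dox, none of the 17 passed in either direction, 9 of the 17 were positive and the median log2-fold change was 0.01. Of 19 genes for nucleic acid sensing and interferon induction, 1 passed as higher and none as lower, where 5.01% of all genes passed as higher. It was Irf3, which acts with Irf7 in inducing interferon genes, whose log2-fold change was 0.39 (edgeR adjusted p = 0.00398). Irf3 was at 31.6 ± 0.628 CPM in PRDM13-OE retinas and 24.1 ± 1.34 CPM in wildtype retinas under dox (SD, n = 3), but at 29.1 ± 6.26 CPM in those labelled PRDM13-OE untreated and 30.7 ± 3.25 CPM in untreated wildtype retinas. Irf3 and the other list genes in the following sentences were named after their values were seen.

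Of 44 other interferon-stimulated genes tested, none passed in either direction in the same contrast, in edgeR or DESeq2, with 4 at an unadjusted p under 0.05, a smaller share than that of all genes (5479 of 20560). Of the 44, 33 were positive and the median log2-fold change was 0.13. Between wildtype retinas with and without dox 38 of 43 were positive, with a median of 0.37 and none past the threshold in edgeR (9 at an unadjusted p under 0.05, as were 1922 of 20631 genes, and 1 past the adjusted threshold in DESeq2). Between retinas labelled PRDM13-OE untreated and untreated wildtype retinas 33 of 44 were positive, with a median of 0.25. These comparisons share groups, and 10435 of 20560, 9956 of 20631 and 10285 of 20668 genes were positive in them. Between PRDM13-OE retinas with dox and those labelled untreated, 1 of 44 passed as higher, the guanylate-binding protein gene Gbp3, whose log2-fold change was 0.94 (edgeR adjusted p = 0.0323), while DESeq2 passed 2 of the 44. The share of all genes that passed as higher in edgeR was 2.04%. Gbp3 was at 7.47 ± 2.34 CPM in the former and 3.89 ± 0.630 CPM in the latter (SD, n = 3).

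**Figure D5:**
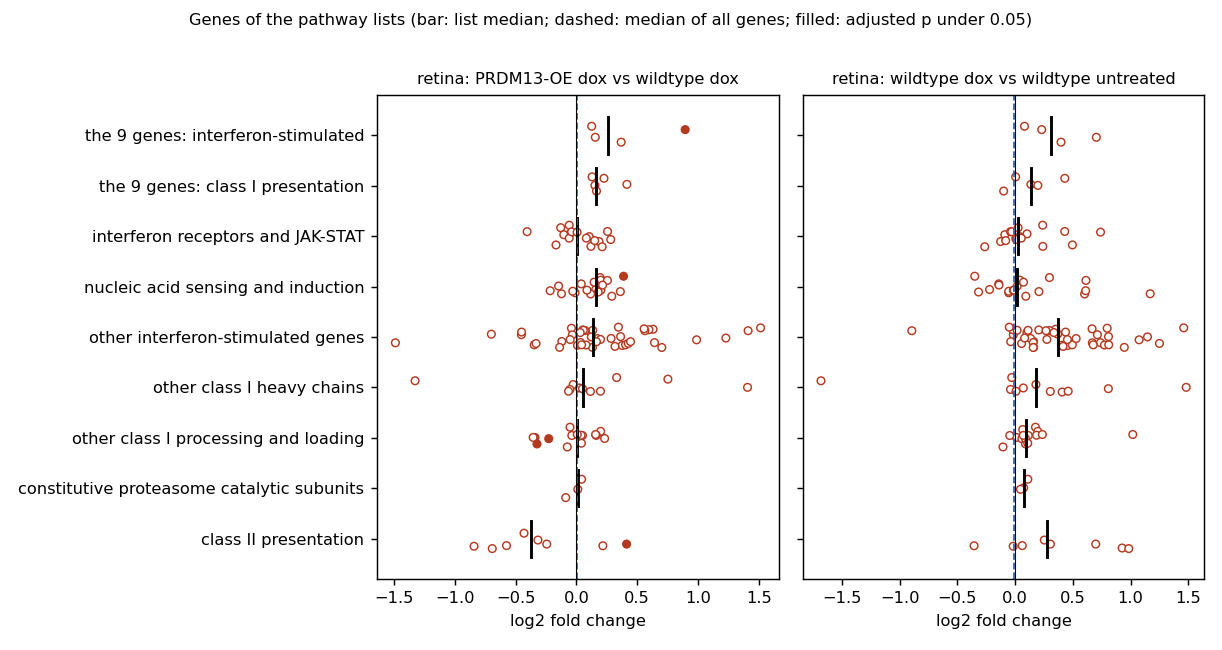
Log2-fold changes (horizontal axes) of the genes of each pathway list in 2 retina comparisons, with 1 point per gene, black bars for list medians, dashed lines for the median of all genes and filled points where the edgeR adjusted p was under 0.05. The other interferon-stimulated genes have medians of 0.13 and 0.37 in the 2 comparisons, and 6 points are filled on the left and none on the right.

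Of 15 other genes of class I processing and loading, none passed as higher and 3 as lower in PRDM13-OE compared with wildtype retinas under dox, where 5.01% of all genes passed as higher and 7.51% as lower. These were Calr (log2-fold change −0.34, edgeR adjusted p = 0.00115), Pdia3 (−0.32, 0.00164) and Canx (−0.23, 0.00834), which encode calreticulin, ERp57 and calnexin, chaperones that help to fold class I and many other glycoproteins in the endoplasmic reticulum. Calr was at 369 ± 8.32 CPM in PRDM13-OE retinas and 465 ± 28.5 CPM in wildtype retinas under dox (SD, n = 3), and at 475 ± 89.7 CPM in those labelled PRDM13-OE untreated. Against retinas labelled PRDM13-OE untreated, Pdia3 passed as lower (−0.26, edgeR adjusted p = 0.0421) and Rfxap, a subunit of the RFX complex at MHC promoters, as higher (0.33, 0.0249). In that comparison 2.04% of all genes passed as higher and 2.96% as lower.

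None of the 11 other class I heavy chains tested and none of the 3 standard proteasome subunits passed in this contrast, in edgeR or in DESeq2, and none of them was at an unadjusted p under 0.05. Of the 8 class II presentation genes, 1 passed as higher and none as lower, against the same shares of all genes. It was Ctss, the lysosomal protease cathepsin S, which microglia also express, at 18.9 ± 0.944 CPM in PRDM13-OE retinas and 14.2 ± 0.533 CPM in wildtype retinas under dox (SD, n = 3, log2-fold change 0.41, edgeR adjusted p = 0.00830). The other class II genes were mostly lower, with a list median of −0.37, and none of them passed. Against retinas labelled PRDM13-OE untreated, Ctss also passed as higher (0.40, edgeR adjusted p = 0.0364).

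In the eye cup no gene of these lists passed in edgeR in any comparison of genotype or dox. In PRDM13-OE compared with wildtype eye cups under dox, 42 of the 47 other interferon-stimulated genes were positive (median 0.36, none past the threshold in DESeq2), and 4 of the 47 and 1792 of 21758 genes were at an unadjusted p under 0.05. Between wildtype eye cups with and without dox 10 of these 47 were positive (median −0.32). Of the 47, 13 were at an unadjusted p under 0.05 (6517 of 21799 genes in all) and 8 passed the adjusted threshold in DESeq2 (4152 genes in all), in both cases a share no higher than that of all genes. Between the tissues 46 of the 47 passed as higher and 1 as lower in the eye cup, with a median of 2.58, along with 14 of 17 receptor and JAK-STAT genes and 7 of 8 class II genes, where 8916 of 26034 genes passed as higher and 8913 as lower.

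The genes most alike in pattern to Isg15 and to B2m were taken as the 5 with the highest Pearson correlation of log2 CPM over the 12 libraries of a tissue, as a description only, since libraries share tissue make-up. In the retina these were Hspa2 (r = 0.93), Psmb2, C1qa, Actn1 and Bola1 for Isg15, and Borcs6 (r = 0.93), Arc, Oasl2, Gbp3 and Parp14 for B2m, among 14853 genes. Oasl2, Gbp3 and Parp14 are themselves interferon-stimulated, and C1qa is a microglial complement gene. In the eye cup they were Mbtps1 (r = 0.90), Twnk, Scfd2, Oas1a and Irf7 for Isg15, and Emp3 (r = 0.98), Plbd2, Rsu1, Pttg1ip and Gnai2 for B2m, among 15688 genes.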

How the data were processed

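Poly-A RNA from the retina and eye cup of 12 mice was sequenced on Illumina platforms. The submitters' processing notes name CASAVA, HISAT2 and GRCm39 (mm39), with no versions, and the counting tool is not given in the sources used here. The authors deposited 1 table with raw read counts and FPKM (by the authors, from gene length and mapped reads) for 24 libraries. Its 60 columns of the authors' own comparisons were not used. Counts were fitted here with the edgeR quasi-likelihood test (edgeR 4.0.16, limma 3.58.1, R 4.3.3) on genes whose counts in the libraries compared summed to 10 or more, with TMM scaling, no robust fitting and Benjamini-Hochberg adjustment over all genes tested. The tissue comparison used all 24 libraries. CPM were computed here over the 12 libraries of a tissue with TMM scaling, and were used within a gene. DESeq2 (1.42.0), other scalings, filters, a replicate block and leaving out each library were alternatives. Scripts were tested on simulated data. The 9 genes were named in each comparison, and pathway genes by rule only if called, which none was in a genotype or dox comparison. Pathway genes whose fold changes are given there passed the adjusted p alone and were named outside this rule. The genes, lists and tests were chosen with earlier results of these data known. Replicates are separate mice. Numbers do not pair mice across groups, but retina and eye cup of 1 mouse are paired (correlation of their deviations 0.000278 to 0.185).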

Additional observations from a re-analysis of the deposited data

How the results depend on the processing

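The count of called genes among the 9 stayed at 0 in each genotype and dox comparison and at 9 between the tissues, except as follows. Without the fold change cutoff it was 1 (Irf7) in the retina for PRDM13-OE with dox against wildtype with dox and against PRDM13-OE untreated, and with library size scaling it was 1 in the latter. Leaving out 1 library gave 0 to 1 in these comparisons, in the retina interaction and in wildtype eye cups with and without dox, and 0 to 3 for PRDM13-OE against wildtype eye cups with dox. Among single log2-fold changes that passed no threshold, leaving out a library turned the sign of Psmb9 (−0.029 to 0.49), Isg15 (−0.029 to 0.47) and Ifit3 (−0.026 to 0.25) in PRDM13-OE compared with wildtype retinas under dox, and of Irf7 (−0.036 to 0.45), B2m (−0.039 to 0.27), Ifit3 (−0.040 to 0.24), H2-D1 (−0.13 to 0.09) and Psmb9 (−0.42 to 0.09) between wildtype retinas with and without dox. It also did so for Isg15 (−0.44 to 0.21) and Irf7 (−0.19 to 0.16) between wildtype eye cups with and without dox, for 5 of the 9 in the retina interaction (all but Irf7, B2m, Ifit1 and Psmb9), for Ifit1 and Psmb9 in untreated retinas, for Isg15, Irf7, H2-K1, Psmb8 and Psmb9 in untreated eye cups and for Ifit3 in PRDM13-OE eye cups with and without dox. Over all 99 pairs of gene and comparison, 10 of 765 values under other settings and 44 of 756 with a library or mouse left out changed sign, and 0 of these had passed the threshold.

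The replicate block left the retina count at 0 for PRDM13-OE against wildtype with dox, and in it B2m had an adjusted p of 0.00832 (0.0492 against PRDM13-OE untreated). Same-numbered mice did not deviate together in a regular way, with correlations from −0.55 to 0.65, so the numbers were not taken as pairs. The value of 0.65 was between eye cups 1 of PRDM13-OE with dox and of PRDM13-OE untreated. With the mouse as a block the tissue count was 9. B2m also passed with library size scaling (0.0212 and 0.0316) and without the count filter, and the cause was not tested. Other settings gave it adjusted p values of up to 0.136 and 0.214 in the same comparisons. With a library left out they reached 0.204 and 0.331. Psmb8, Psmb9 and Isg15 in the retina, with 21 to 61 counts per library, are limited by depth.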
